A study of Homo sapiens with 6 samples.

Results

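Genes for the protein subunits of the mitochondrial ribosome were followed through long cDNA reads of Calu-6 cells in which the Delta 2-4 splice variant of TERT, the catalytic subunit of telomerase, had been targeted. The members were all genes whose symbol is MRPL or MRPS followed by a number and at most 1 letter from A to C. Of 10072 genes in the count table, 76 met this rule, 47 with an MRPL symbol (large subunit) and 29 with an MRPS symbol (small subunit). They were represented by 238 of the 21472 transcript models in the table. Gencode release 44 lists 78 such genes, and the other 2, MRPL23 and MRPL45, were not analysed here. Calu-6 is a non-small cell lung cancer line. Over 48 h the cells were given siRNA at 10 nM, either a non-silencing control (siControl) or one that targets the joined exon 1 and exon 5 of TERT (siDelta2-4), with 3 libraries in each group. The sample labels give the genotype of all 6 samples as WT, while the table's column names carry the word Empty, and the study's methods describe cells with a stably expressed empty Flag-V5 vector. All libraries came from 1 cell line. The study speaks of them as biological replicates, the sources used here do not say how their cultures were kept apart, and p-values measured only the spread between these libraries.

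Mitochondria keep their own ribosome, which translates the few messenger RNAs of the mitochondrial genome, all of them for membrane subunits of the respiratory chain and of the ATP synthase. Its ribosomal RNAs come from mitochondrial DNA, but every one of its proteins is encoded in the nucleus, made in the cytosol and imported. Some of these proteins have a bacterial counterpart and others are found only in mitochondrial ribosomes. The members were also divided by textbook names of ribosomal proteins, into 45 bacterial-type genes and 31 others, here called mitochondria-specific. MRPS18C fell in the first class and its paralogs MRPS18A and MRPS18B in the second, so the split follows names and is no test of homology.

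The 6 libraries held between 1037468 and 1309241 counts, where 1 count is 1 long read assigned to a transcript model. TERT had 0 rows in the table, so the knockdown itself could not be checked. Of 6 epithelial markers, 5 were present, KRT7, KRT8, KRT18, KRT19 and EPCAM, at 0.0259% to 0.0297% of the counts in siControl and 0.0275% to 0.0347% in siDelta2-4, and CDH1 had no row. Of 11 fibroblast, immune and endothelial markers, 8 had no row. LUM reached at most 0.000422% of a library's counts, and CD68 and LYZ together at most 0.000382%. On the first principal component of all tested genes, which held 42.9% of the variance, 2 siControl libraries lay at -16.9 and -15.2, the third (siControl 3) at -0.36, and the siDelta2-4 libraries between 8.71 and 13.8. Because siControl 3 stood apart from its group, members described with their values whose call changed without it are given both ways. In bulk RNA, fewer cells of a type and less RNA per cell cannot be told apart.

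Together the 76 genes held 36480 counts, between 5534 and 7103 per library. Their share of a library's counts was 0.515%, 0.523% and 0.533% in the siControl libraries and 0.566%, 0.545% and 0.543% in the siDelta2-4 libraries. The groups did not overlap, and the means were 0.524% ± 0.00944 and 0.551% ± 0.0132 (SD over 3 libraries each, two-sided exact permutation test, p = 0.1, the lowest value that 3 against 3 libraries allow, and 0.175 after Benjamini-Hochberg adjustment over 7 such comparisons). With library totals scaled by TMM, the normalization factor that sets most genes to no change, the difference in share fell from 0.0276 to 0.00218 percentage points (exact permutation test, p = 0.9).

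Large subunit genes took 0.338% ± 0.00752 in siControl and 0.356% ± 0.012 in siDelta2-4, and small subunit genes 0.185% ± 0.00366 and 0.196% ± 0.00192 (SD over 3 libraries each, two-sided exact permutation test, p = 0.1 for each). In neither subunit did the groups overlap. With TMM-scaled totals the difference fell from 0.0174 to 0.00111 percentage points for the large subunit (exact permutation test, p = 1) and from 0.0101 to 0.00107 for the small (exact permutation test, p = 0.7). For every count on a small subunit gene there were 1.84, 1.78 and 1.86 counts on large subunit genes in the siControl libraries and 1.88, 1.77 and 1.81 in the siDelta2-4 libraries, so the groups overlapped. The log2 ratio of large to small subunit counts was 0.87 ± 0.034 and 0.86 ± 0.042 (SD, n = 3 each), a difference of -0.0047 (two-sided exact permutation p = 0.9). Leaving out 1 library at a time moved this difference between -0.028 and 0.013. MRPS18A and MRPS30 carry small subunit symbols but sit in the large subunit in structures of the mammalian ribosome. Counting them there left a difference of -0.00037. All other members were placed by symbol alone, and whether each of their products sits in the ribosome was not checked. The log2 ratio of bacterial-type to mitochondria-specific counts averaged 0.87 ± 0.023 for siControl and 0.89 ± 0.035 for siDelta2-4 (SD over 3 libraries each, two-sided exact permutation test, p = 0.5).

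The members were also set against the messenger RNAs that their ribosome translates. Each library held 1.64, 1.86 and 1.82 counts of mitochondrial ribosomal protein genes per count of a mitochondrially encoded protein gene in siControl, and 1.37, 1.41 and 1.27 in siDelta2-4. All siDelta2-4 libraries lay below all siControl libraries. The mitochondrially encoded counts, not scaled to library totals, were 3468, 3034 and 3037 in siControl and 4418, 4564 and 5577 in siDelta2-4. The member counts were 5693, 5638 and 5534 in siControl and 6061, 6451 and 7103 in siDelta2-4. The lower ratio thus came with higher counts of the mitochondrially encoded genes and not with lower counts of the members. The log2 ratio was 0.82 ± 0.096 and 0.43 ± 0.077 (SD, n = 3 each), lower by 0.39 in siDelta2-4 (two-sided exact permutation p = 0.1, adjusted 0.175), and stayed lower by 0.35 to 0.45 with any 1 library left out.

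**Figure D1:**
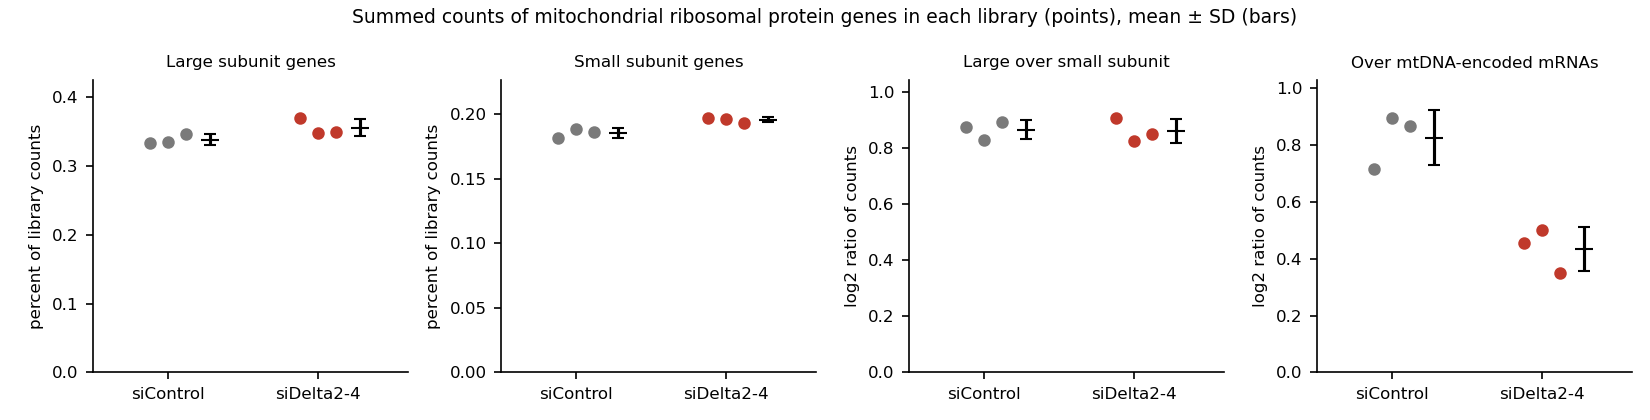
Summed counts of mitochondrial ribosomal protein genes in each library (points, n = 3 per group) with mean ± SD (bars). The 2 left panels give the share of library counts in percent, where the groups do not overlap. The third gives the log2 ratio of large to small subunit counts, where they do, and the fourth the log2 ratio to mitochondrially encoded mRNA counts, where the siDelta2-4 libraries lie at 0.35 to 0.50 and the siControl libraries at 0.72 to 0.89.

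Gene by gene, 67 members had enough counts to be tested, 43 of the large and 24 of the small subunit, with 54 to 3283 counts over the 6 libraries. The 9 members below the limit were MRPL4, MRPL28, MRPL38, MRPL49, MRPS2, MRPS18B, MRPS26, MRPS27 and MRPS34, with 8 (MRPS26) to 60 (MRPL38) counts each. Of the tested members, 5 (7.46%) had an adjusted p under 0.1, against 13% of all 3888 tested genes. MRPS10, MRPS25 and MRPL22 rose, which was 4.48% of the tested members against 7% of all tested genes, and MRPL11 and MRPL20 fell, 2.99% against 5.97%. The median log2 fold change was 0.032 over the tested members, from -0.78 to 0.94, and 0.027 over all tested genes. None differed by more than 1 on the log2 scale. The middle of the distribution, between the lower and upper quartiles, ran from -0.11 to 0.18 in the members and from -0.16 to 0.28 in all tested genes. Levels in CPM, counts scaled to a common library total, that did not overlap between the groups were found for 16 members, 23.9%, of which 9 were higher and 7 lower in siDelta2-4, against 26.2% of all tested genes.

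Large subunit genes had a median log2 fold change of 0.028, with 24 higher and 19 lower, and small subunit genes one of 0.071, with 15 higher and 9 lower. Of the 42 tested bacterial-type genes, 4 (9.52%) passed the threshold (MRPL11, MRPL20, MRPL22 and MRPS10), and 14 (33.3%) had CPM that did not overlap between the groups. Of the 25 tested mitochondria-specific genes, 1 (4%) passed (MRPS25), and 2 (8%) did not overlap. Among all tested genes these shares were 13% and 26.2%, and the difference between the classes was not tested.

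**Figure D2:**
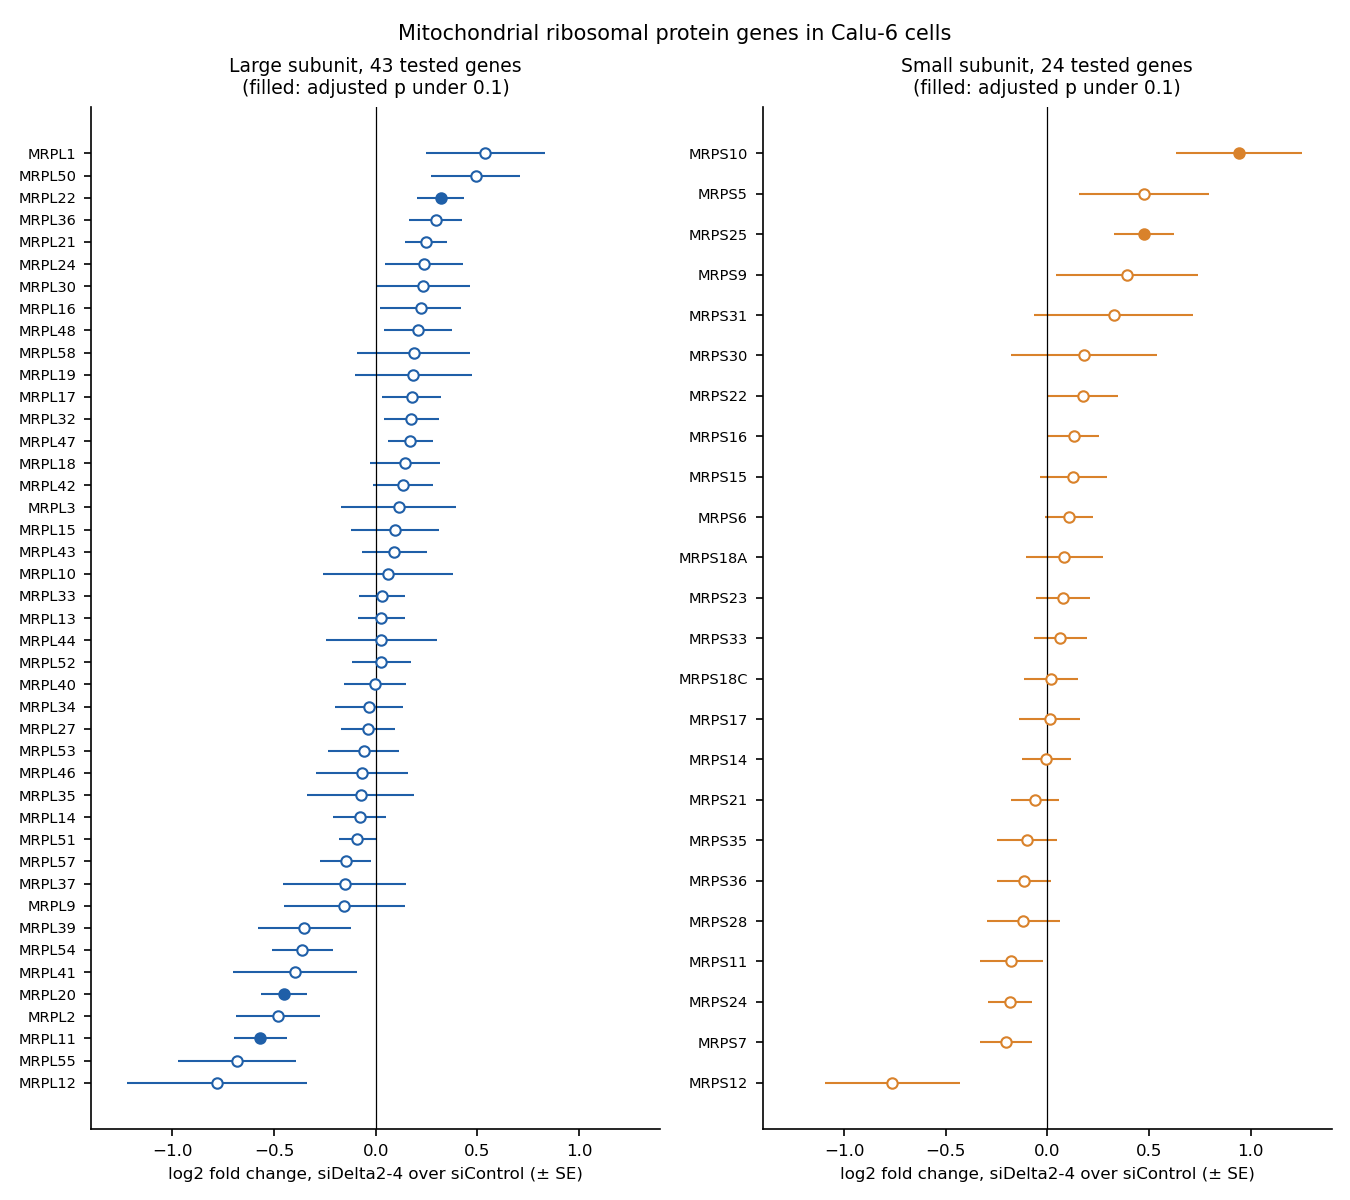
Log2 fold change of siDelta2-4 over siControl with its standard error for the 43 large and 24 small subunit genes tested, in order of size. Filled points have an adjusted p under 0.1, which are MRPL22, MRPL20 and MRPL11 in the large subunit and MRPS10 and MRPS25 in the small subunit. Most other points lie within 0.5 of 0.

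MRPL11 (ENSG00000174547.13, chromosome 11, 66435075 to 66466738, minus strand, GRCh38.p14) encodes a protein at the base of the stalk where translation factors bind. It was at 124, 113 and 108 CPM in the siControl libraries and at 78.6, 71.3 and 81.9 CPM in the siDelta2-4 libraries. Every siDelta2-4 library was below every siControl library. The means were 115 ± 7.97 and 77.3 ± 5.4 CPM (SD, n = 3 each), a log2 difference of -0.57 with an SE of 0.13 (adjusted p = 0.00772).

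MRPL20 (ENSG00000242485.6, chromosome 1, 1401909 to 1407293, minus strand) encodes a large subunit protein with a bacterial counterpart that binds ribosomal RNA. It was at 184, 181 and 154 CPM in siControl and at 129, 124 and 126 CPM in siDelta2-4, again with no overlap. The means were 173 ± 16.5 and 126 ± 2.7 CPM (SD, n = 3 each), a log2 difference of -0.45 with an SE of 0.11 (adjusted p = 0.0145). MRPL11 and MRPL20 are also the members that the study named among its lower translation genes, a choice made on these libraries, so that their direction here is not independent evidence. They kept their call under each of 14 other settings, with log2 fold changes from -0.73 to -0.50 for MRPL11 and from -0.55 to -0.37 for MRPL20 and adjusted p up to 0.0684 and 0.0853. An antisense gene, MRPL20-AS1, overlaps MRPL20 and had 14 counts in all, against 1006 for MRPL20.

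MRPS10 (ENSG00000048544.6, chromosome 6, 42206807 to 42217861, minus strand), a small subunit protein with a bacterial counterpart in the head of that subunit, showed the largest difference on few reads. The siControl libraries gave 9, 9 and 12 counts and the siDelta2-4 libraries 21, 23 and 23, without overlap. At 9.53 ± 1.59 and 18.4 ± 0.992 CPM (SD, n = 3 each), the log2 fold change was 0.94 ± 0.31 (SE, adjusted p = 0.0585). The call was lost without any 1 library other than siControl 3, at adjusted p = 0.128 to 0.209, and held without siControl 3 at 1.06 (adjusted p = 0.0316).

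MRPS25 (ENSG00000131368.9, chromosome 3, 15009611 to 15065339, minus strand) is a mitochondria-specific small subunit protein. It was at 69.5, 67.4 and 56.8 CPM in siControl and at 89.7, 86.5 and 92.5 CPM in siDelta2-4, where all libraries were higher. The means were 64.6 ± 6.81 and 89.6 ± 2.97 CPM (SD, n = 3 each), a log2 difference of 0.48 with an SE of 0.15 (adjusted p = 0.044). The call was lost without siControl 2 or any 1 of the siDelta2-4 libraries, at adjusted p = 0.106 to 0.158. NR2C2, a nuclear receptor gene on the opposite strand that shares 43990 bases with the MRPS25 locus, had 471 counts against 530 for MRPS25 and a log2 difference of 0.28 with an SE of 0.16 (adjusted p = 0.307). The sources used here do not say how read strand was treated in the counting, so reads of the pair cannot be told apart with certainty.

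MRPL22 (ENSG00000082515.18, chromosome 5, 154941073 to 154969411, plus strand) encodes a protein that lines the tunnel through which the nascent chain leaves the ribosome. It was at 136, 129 and 112 CPM in siControl and at 163, 151 and 155 CPM in siDelta2-4, with no overlap. The means were 126 ± 12.6 and 157 ± 5.74 CPM (SD, n = 3 each), a log2 difference of 0.32 with an SE of 0.12 (adjusted p = 0.0897). Without any 1 of the 6 libraries the adjusted p was 0.131 to 0.239, and 2 of 14 other settings kept the call.

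**Figure D3:**
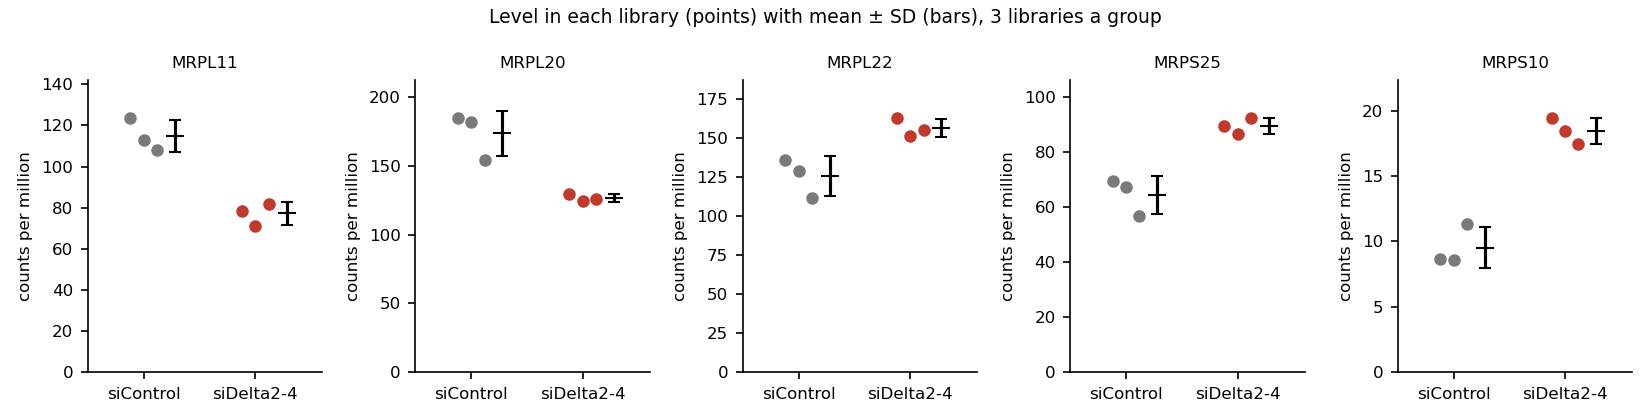
Level in each library in CPM (points, n = 3 per group) with mean ± SD (bars) for MRPL11 and MRPL20, which were lower in siDelta2-4, and MRPL22, MRPS25 and MRPS10, which were higher. In none of the 5 panels do the groups overlap.

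Fold change and transcript length moved together in the members, as in the whole table. The length of a gene was taken as the mean length of its transcript models weighted by counts, and across the 67 tested members it had a Spearman rho of 0.34 with the log2 fold change, against 0.33 across all 3888 tested genes, given as a description since all genes share the same 6 libraries. The 34 members up to the median length of 1220 nt had a median log2 fold change of -0.048, and the 33 longer ones one of 0.11. The 3 members that rose had lengths of 2100 (MRPS10), 2880 (MRPL22) and 4461 nt (MRPS25), and the 2 that fell had 700 (MRPL20) and 1564 nt (MRPL11). With the length trend removed within each library, all 3 rises lost their call, at log2 fold changes of 0.77 (MRPS10, adjusted p = 0.103), 0.30 (MRPS25, adjusted p = 0.22) and 0.14 (MRPL22, adjusted p = 0.55). Both falls kept theirs, at -0.73 for MRPL11 (adjusted p = 0.00322) and -0.37 for MRPL20 (adjusted p = 0.0381). In that fit MRPL21 (0.33) and MRPL36 (0.39) were called higher and MRPL2 (-0.56) and MRPS7 (-0.35) lower. Altogether 6 of 67 members (8.96%) passed in it, against 12.3% of all tested genes. What part length, or RNA length in the libraries, has in these differences was not tested.

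**Figure D4:**
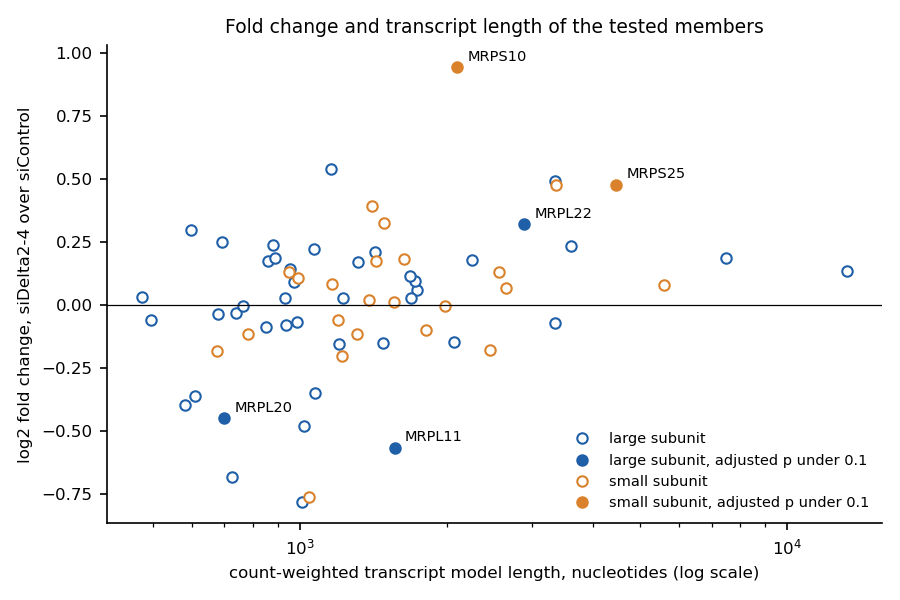
Log2 fold change against count-weighted transcript model length (log scale) for the 67 tested members. Large subunit genes are blue and small subunit genes orange, with adjusted p under 0.1 filled. MRPS10, MRPL22 and MRPS25 lie above 0 at 2100 to 4461 nt, and MRPL20 and MRPL11 below 0 at 700 and 1564 nt.

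Beside these 5, the members with the largest log2 fold changes were measured on few reads and did not pass the test. Among the higher ones, MRPL1, a protein of the mobile stalk at the tRNA exit site, went from 13 ± 2.86 to 19.1 ± 2.82 CPM (SD, n = 3 each), a log2 difference of 0.54 with an SE of 0.29 (adjusted p = 0.274), with no overlap. MRPL50, a mitochondria-specific protein, had 0.49 ± 0.22 (SE, adjusted p = 0.166), and 0.72 without the siDelta2-4 library numbered 3, where it passed (adjusted p = 0.0555). MRPS5, a small subunit protein near the messenger RNA entry, had 0.48 ± 0.32 (SE, adjusted p = 0.39).

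Among the lower ones, MRPL12, the stalk protein that recruits translation factors, had 55 counts in all and a log2 difference of -0.78 with an SE of 0.44 (adjusted p = 0.296). Its siDelta2-4 libraries ranged from 1.6 to 11.1 CPM and overlapped with the siControl range of 7.6 to 13.5 CPM. MRPS12, which takes part in decoding accuracy, had 84 counts and -0.76 ± 0.33 (SE, adjusted p = 0.156). MRPL55 had -0.68 ± 0.29 (SE, adjusted p = 0.145) and passed without siControl 1 (-0.89, adjusted p = 0.0815) or siControl 3 (-0.76, adjusted p = 0.0727). MRPL2, a core protein near the catalytic centre, had -0.48 ± 0.21 (SE, adjusted p = 0.148), with 33.3, 37.7 and 23.5 CPM in siDelta2-4 against 45.4, 38.9 and 47.3 CPM in siControl. Its opposite-strand neighbour KLC4 had 174 counts against 252.

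The most counted members of each subunit had log2 fold changes between -0.18 and 0.25, and none passed the test in the reported fit. In the large subunit, MRPL51 led with 3283 counts, at 501 ± 14.3 CPM in siControl and 470 ± 35 CPM in siDelta2-4 (SD, n = 3 each), a log2 difference of -0.090 with an SE of 0.090 (adjusted p = 0.587). MRPL21 had 0.25 ± 0.10 (SE, adjusted p = 0.14), with 221, 259 and 250 CPM in siControl and 303, 268 and 293 CPM in siDelta2-4, which did not overlap. It passed without siControl 3, at 0.24 (adjusted p = 0.0949), with library totals only, at 0.31 (adjusted p = 0.0598), and with the length trend removed. MRPL33, MRPL47 and MRPL13 had log2 fold changes of 0.032, 0.17 and 0.028.

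In the small subunit, MRPS24 led with 1413 counts, at 219, 243 and 205 CPM in siControl and 199, 201 and 187 CPM in siDelta2-4. The groups did not overlap, and the log2 fold change was -0.18 ± 0.11 (SE, adjusted p = 0.318). It passed only without siControl 3, at -0.26 (adjusted p = 0.0795). MRPS21, MRPS6, MRPS16 and MRPS18C had log2 fold changes of -0.062, 0.11, 0.13 and 0.017. MRPS18 exists as 3 paralogous genes whose products occupy different places in the ribosome. MRPS18C held 847 counts, MRPS18A 298 and MRPS18B 23, and the tested ones, MRPS18A and MRPS18C, had adjusted p of 0.838 and 0.963.

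The promoters of the 5 members that passed are shown because MRPL11 and MRPL20 moved against MRPS10, MRPS25 and MRPL22. Each line gives 170 bases before and 30 bases from the RefSeq start, 5′ to 3′ on the gene's strand, in GRCh38.p14. Capitals mark matches, on either strand, to letters associated with NRF1 (GCGCANGCG), GABP (CCGGAAG) and YY1 (AAGATGGCG), factors known for nuclear genes of mitochondrial proteins, and to a TATA box (TATAAA). In all 5 genes the RefSeq start was the annotated start of the member's most counted model.
MRPL11 (chr11:66438819-66439018, minus strand): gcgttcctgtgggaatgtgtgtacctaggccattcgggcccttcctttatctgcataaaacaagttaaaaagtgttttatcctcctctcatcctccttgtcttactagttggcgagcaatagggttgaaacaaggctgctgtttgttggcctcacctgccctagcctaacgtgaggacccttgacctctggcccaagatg
MRPL20 (chr1:1407264-1407463, minus strand): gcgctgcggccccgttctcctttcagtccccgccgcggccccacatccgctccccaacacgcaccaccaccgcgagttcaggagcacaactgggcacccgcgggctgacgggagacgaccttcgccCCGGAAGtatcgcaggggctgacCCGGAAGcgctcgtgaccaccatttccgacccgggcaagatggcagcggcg
MRPS25 (chr3:15065286-15065485, minus strand): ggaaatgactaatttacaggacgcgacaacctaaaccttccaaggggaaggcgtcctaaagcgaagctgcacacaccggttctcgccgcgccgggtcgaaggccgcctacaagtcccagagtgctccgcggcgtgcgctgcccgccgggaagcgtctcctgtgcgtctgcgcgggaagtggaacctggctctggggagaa
MRPS10 (chr6:42217832-42218031, minus strand): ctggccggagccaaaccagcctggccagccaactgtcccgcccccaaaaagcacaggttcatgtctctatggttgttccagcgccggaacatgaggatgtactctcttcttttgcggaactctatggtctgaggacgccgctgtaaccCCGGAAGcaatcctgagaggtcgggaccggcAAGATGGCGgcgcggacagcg
MRPL22 (chr5:154940903-154941102, plus strand): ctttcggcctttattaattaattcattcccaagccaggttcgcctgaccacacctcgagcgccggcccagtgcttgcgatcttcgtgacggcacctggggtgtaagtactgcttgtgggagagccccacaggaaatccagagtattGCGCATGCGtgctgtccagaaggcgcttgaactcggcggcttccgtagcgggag

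MRPL20 held 2 copies of the GABP letters, at positions -44 and -21 from the start, MRPS10 held the GABP letters at -22 and the YY1 letters at 10, and MRPL22 held the NRF1 letters at -24. MRPL11 and MRPS25 held none of the 4 motifs in this window. The GABP letters were present in MRPL20, which fell, and in MRPS10, which rose. Whether such letters have a part in the direction was not tested. RefSeq promoters of 300 bases, from 250 before to 50 after the start, were matched by symbol to 68 members. The GABP letters were in 44.1% of them, in 31% of the promoters of tested protein-coding genes and in 12.2% of all 27305 genes with a promoter. The YY1 letters were in 19.1% and 6.72% and in 583 of the 27305, the NRF1 letters in 19.1%, 21.7% and 9.02%, and the TATA box in 4.41%, 7.63% and 14%. At least 1 of the first 3 motifs was in 67.6% of the member promoters, 50.1% of those of tested protein-coding genes and 20.5% of all. These are matches of letters and carry no measurement of binding.

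Members also lie close to other genes. Of the 76, 17 (22.4%) had a protein-coding gene starting within 1000 bases upstream on the opposite strand, against 16.7% of 1989 tested protein-coding genes. One such pair, MRPL46 and MRPS11, joins a large and a small subunit gene 63 bases apart, with log2 fold changes of -0.067 and -0.18, neither of which passed. MRPL47 starts 41 bases from NDUFB5, a complex I subunit gene, which rose by 0.50 (adjusted p = 0.00687) while MRPL47 stood at 0.17 (adjusted p = 0.367). MRPL36 starts 41 bases from NDUFS6, another complex I gene, with 0.30 for MRPL36 and -0.17 for NDUFS6 (adjusted p = 0.164 and 0.364). A counted gene on the opposite strand overlapped 19 members, and in 7 of them (MRPL2, MRPL43, MRPL44, MRPL47, MRPS14, MRPS16 and MRPS25) it had more than 50% of the member's own counts, which makes these levels less certain. Gencode lists 81 pseudogenes named after members, of which 3 had rows, MRPL45P2 with 85 counts and MRPS18CP7 and MRPS36P1 with 6 and 5.

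Reads of the members fell mostly on annotated models. Known models held 90.6% of the member counts, against 45.3% of all counts in the table. Incomplete splice matches (ISM, models that cover part of a known one) held 6.4%, models that join known splice sites in a new way (NIC) 2.28%, and models with a new splice site (NNC) 0.702%. The known share of the member counts averaged 90.8% ± 0.799 for siControl and 90.5% ± 0.145 for siDelta2-4 (SD over 3 libraries each, two-sided exact permutation test, p = 0.8). Unannotated models were in the table only with at least 5 counts in every siDelta2-4 library, so levels of such models are not on an equal footing between the groups. Every known model in the table also had a count in siDelta2-4. Any model read only in siControl is therefore missing from the counts, the library totals and the shares given above. Of the known counts, 98.8% were on models annotated as protein coding, 0.408% on models subject to nonsense-mediated decay and 0.445% on models with a retained intron.

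A single model carried more than 90% of the counts in 40 of the 76 genes, while in 6 no model reached 50%. Of 94 member models tested, in 65 genes, 4 had an adjusted p under 0.1, or 4.26% against 6.91% of all 6768 tested models. These were the leading models of genes that passed as a whole. MRPL11-201 (5 exons, 1605 nt) fell from 76, 72 and 66 counts to 51, 55 and 60 (log2 fold change -0.55, adjusted p = 0.0556), and its sister MRPL11-203 from 48, 46 and 47 to 33, 34 and 47 without passing (-0.49, adjusted p = 0.16). MRPL20-201 was the only model of its gene. MRPS25-201 and MRPS10-201 held 96.8% and 100% of their genes' counts. No model passed without siControl 1, siControl 2 or the siDelta2-4 library numbered 2, and 6 passed without siControl 3. The share of all tested genes past the threshold was 7.27%, 5.52%, 4.85% and 25.4% with the same libraries left out. The share of all tested models in these fits is not given here.

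The use of models within a gene could be tested in 21 members, and 0 passed an adjusted p of 0.1 in edgeR, against 0.618% of 1132 genes tested. An unadjusted p under 0.05 was found for 2 members, and the share of all 1132 genes with such a p is not given here. In MRPS21, a small subunit protein with a bacterial counterpart, MRPS21-202 (3 exons, 1085 nt) went from 150, 132 and 105 siControl counts to 118, 146 and 120 siDelta2-4 counts, and MRPS21-201 (2 exons, 1462 nt) from 45, 43 and 47 to 60, 59 and 75. The share of MRPS21-201 averaged 26.2% ± 4.16 for siControl and 33.6% ± 4.84 for siDelta2-4 (SD, n = 3 each), with overlapping groups (adjusted p = 0.417 for the gene). In MRPL52, MRPL52-203 went from 17, 25 and 14 siControl counts to 36, 29 and 26 siDelta2-4 counts, beside MRPL52-202 with 48, 43 and 36 and then 41, 40 and 48 (adjusted p = 0.494 for the gene). The share of MRPL52-203 in the gene's counts was 17.3% to 27.2% in siControl and 25.2% to 35.3% in siDelta2-4, which overlapped.

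MRPL33 and MRPL36 were led by models that are not in Gencode. All 1568 counts of MRPL33 lay on an ISM model of 3 exons (495 nt, 81.3%) and an NIC model of 2 exons (388 nt, 18.7%), and none on a known model. In MRPL36, an ISM model of 1 exon (563 nt) held 48% of the counts. Before scaling to library totals, the siControl libraries gave it 41, 40 and 50 reads, and the siDelta2-4 libraries 64, 59 and 87. It did not pass the test (log2 fold change 0.49, adjusted p = 0.139). The share of this model in the gene's counts was 40.4% to 50% for siControl and 47.1% to 55.1% for siDelta2-4, which overlapped. MRPL36-202 had 38, 42 and 34 and then 51, 42 and 53 counts, which overlapped. A single-exon model cannot be told from a fragment of a spliced one by its length.

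**Figure D5:**
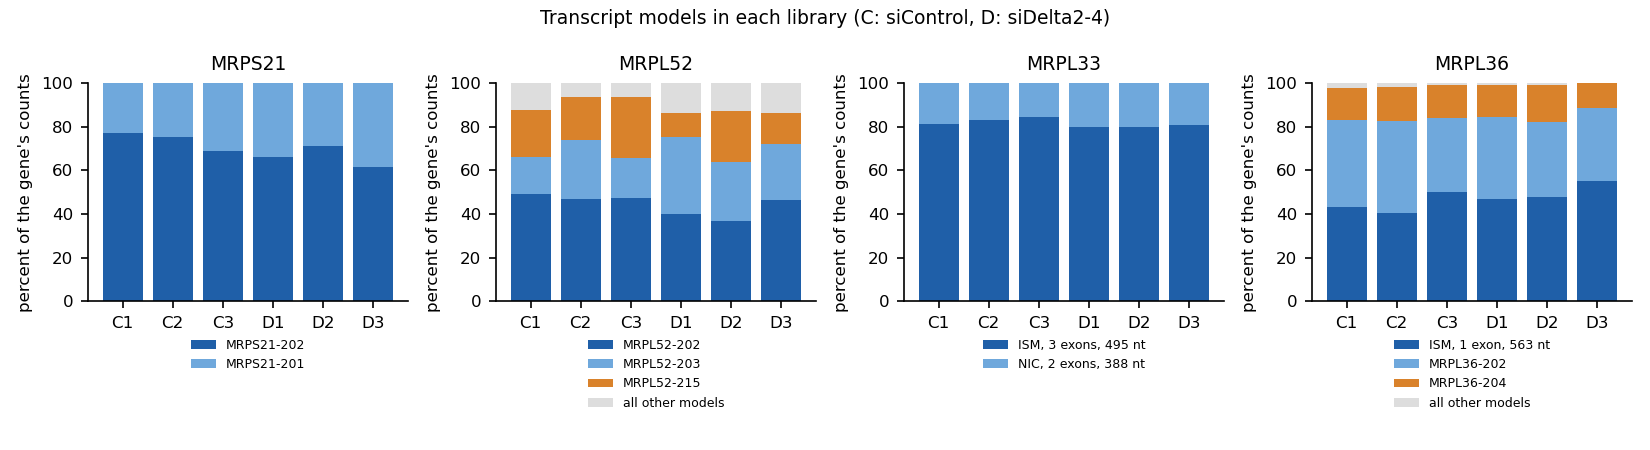
Share of each gene's counts on its 3 most counted transcript models, in percent, in the siControl (C1 to C3) and siDelta2-4 (D1 to D3) libraries for MRPS21, MRPL52, MRPL33 and MRPL36. MRPS21-201 makes up 23.1% to 38.5% of MRPS21, and the ISM model of 495 nt at least 79.6% of MRPL33 in every library.

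Genes that work with the mitochondrial ribosome were taken from 4 lists. Of 25 tested genes on them, 11 passed the threshold, 8 higher and 3 lower. Of all tested genes 13% passed, 7% higher and 5.97% lower. Among subunits with other names, 4 of 5 were in the table and 3 were tested. AURKAIP1, a small subunit protein, fell at a log2 difference of -0.67 with an SE of 0.25 (adjusted p = 0.0988), CHCHD1 had -0.37 and DAP3 0.22, while GADD45GIP1 had 3 to 5 counts per library. The call on AURKAIP1 was lost without siControl 1, siControl 2 or the siDelta2-4 libraries numbered 1 or 2, at adjusted p = 0.154 to 0.324. Among assembly factors, 6 of 26 were tested. NDUFAB1, the mitochondrial acyl carrier protein, which also serves complex I and lipoic acid synthesis, fell from 193, 216 and 195 counts to 145, 160 and 166 (log2 fold change -0.57 ± 0.11, SE, adjusted p = 0.0018), and passed in each of the 14 other settings.

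Among translation and messenger RNA factors, 5 of 16 were tested. SLIRP, which binds mitochondrial messenger RNAs together with LRPPRC, fell from 677, 557 and 512 CPM to 463, 425 and 443 CPM, without overlap (log2 fold change -0.39 ± 0.098, SE, adjusted p = 0.014). Its value was -0.25 with the length trend removed (adjusted p = 0.0562), and the call was lost without the siDelta2-4 library numbered 2 (-0.36, adjusted p = 0.111). The elongation factors TUFM and TSFM had -0.28 (adjusted p = 0.35) and 0.043 (adjusted p = 0.944), and LRPPRC had between 0 and 4 counts per library. Of the 11 mitochondrially encoded protein genes tested, 8 (72.7%) passed and all 8 were higher, against 7% of all tested genes called higher. The median log2 fold change was 0.43 over the 11 and 0.027 over all tested genes. The study named MT-ND1, MT-CYB and MT-CO2 from these libraries, so that their direction is not independent evidence. Without single libraries, the number of these pathway genes past the threshold was between 5 and 11, with 5 both without siControl 2 and without the siDelta2-4 library numbered 1.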

How the data were processed

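The data were long reads of PCR-amplified cDNA from polyadenylated RNA, sequenced on 1 MinION flow cell. The authors aligned them to GRCh38.p14 with minimap2 2.14, sorted them with SAMtools 1.13, corrected them with TranscriptClean and assigned them to Gencode 44 or unannotated models with TALON. The deposited values were raw counts per transcript model and library, and 0 count columns were left unused. Every one of the 21472 rows had a count in siDelta2-4, and all 6398 unannotated models reached 5 or more counts in each of the 3 siDelta2-4 libraries. Reads carried no molecular identifiers, so counts also reflect amplification.

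Counts were summed per gene identifier in Python 3.11.15 with pandas 2.3.3. CPM were counts divided by TMM-scaled library totals and scaled to a common total. Genes kept by filterByExpr were tested in R 4.3.3 with the quasi-likelihood test of edgeR 4.0.16, without covariates, and Benjamini-Hochberg adjusted over all tested genes (threshold 0.1). The same test was run on transcript models, and diffSpliceDGE on their use within genes. Sums per library were compared with exact two-sided permutation tests. The scripts were tested on simulated data. Alternatives included DESeq2 1.42.0. The columns carry numbers that the sample labels do not, so columns were placed by group. Same-numbered columns showed no sign of pairing (correlations of their deviations from -0.14 to 0.039), which with 3 libraries per group cannot exclude it.

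The members and gene lists were chosen with earlier results of these data known. Members were named if they passed at gene, model or usage level, were named by the study, were among the 5 largest differences in either direction or the 5 most counted of a subunit, were MRPS18 paralogs, or had the smallest usage p. Others are named as counts, neighbours or examples, chosen after their values were seen.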

Additional observations from a re-analysis of the deposited data

How the results depend on the processing

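The number of members past the threshold, 5 in the reported fit, was 2 with the DESeq2 Wald test, 3 without a filter on low counts, 3 with the replicate block on column number, 3 at an adjusted p under 0.05 and between 2 and 8 with single libraries left out. It was 2 without siControl 2 or the siDelta2-4 libraries numbered 1 or 2, 3 without the siDelta2-4 library numbered 3 and 8 without siControl 3. The share of all tested genes past the threshold moved too, from 13% to 6.53% with the DESeq2 Wald test, 4.13% without a filter, 7.69% with the block and 7.82% at an adjusted p under 0.05. It was between 4.85% and 7.54% without any single library but siControl 3, and 25.4% without siControl 3, where 8 of 69 members (11.6%) passed. Member models past the threshold numbered 1 instead of 4 with the DESeq2 Wald test, and between 0 and 6 with single libraries left out. For all tested models the shares under these settings are not given here. A change in the members thus cannot be told from a change in the whole table. Pathway genes numbered 7 instead of 11 with the DESeq2 Wald test, 7 with the replicate block and between 5 and 11 with single libraries left out. Alternatives for the pathway genes and for the ratios to mitochondrially encoded and mitochondria-specific counts were chosen after seeing the data. Usage called 0 members in every setting run. With the block, MRPS10 (adjusted p = 0.11) and MRPL22 (adjusted p = 0.144) lost their calls, and no other member's call changed.

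With single libraries left out, differences between the groups ran from -0.028 to 0.013 for the log2 ratio of large to small subunit counts, from -0.62 to 0.148 percentage points for the known model share and from -0.00095 to 0.032 for the log2 ratio of bacterial-type to mitochondria-specific counts, and so changed sign. Log2 fold changes near 0 also changed sign. That of MRPL13 was -0.017 on known models and -0.12 with the length trend removed (-0.056 to 0.069 with single libraries left out), and that of MRPL33 ran from -0.045 to 0.13. The value for MRPS16 was -0.049 with the length trend removed and for MRPS18A -0.045 (-0.027 to 0.16 with single libraries left out). MRPS18C had -0.010 with the DESeq2 Wald test, -0.0098 with its size factors, -0.012 on known models and -0.15 with the length trend removed (-0.16 to 0.13 with single libraries left out), and MRPS21 had 0.0065 with library totals (-0.18 to 0.017). The cause was not tested. At this depth, 9 members could not be tested, and SEs of log2 fold changes reached 0.44 (MRPL12, 55 counts).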
